A study of Mus musculus with 21 samples.

Results

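Plvap encodes a diaphragm protein found in fenestrated endothelium. Among 8645 cells kept from a single-cell library of sorted brain endothelium, 144 carried it together with companion transcripts, and these cells are described here. They were chosen by their counts of unique molecular identifiers (UMIs, each standing for 1 captured transcript): at least 2 UMIs of Plvap and at least 2 UMIs of Esm1, Plpp3 and Rbp7 together, in cells with at least 500 genes and at most 10% mitochondrial UMIs. The gated cells made up 1.67% of the cells kept (exact binomial 95% interval 1.41% to 1.96%, counting error only) and held 2.06% of their UMIs. They are set against 8335 comparison cells with 0 Plvap UMIs and at least 1 UMI of Cldn5, the main claudin of the blood-brain barrier; 166 kept cells fell in neither group.

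The library came from the whole brain of C57BL/6J mice aged 2 to 4 months, perfused and enzymatically digested, and live CD31+ cells were sorted after PDGFRβ+ and CD45+ cells were gated out. Bulk RNA sequencing of cells sorted in the same way covered 3 libraries each of brain, lung and liver from mice of that strain and age. No genotype, treatment or transgene separated the samples, and the labels name no brain region and no number of animals behind a library. With 1 single-cell library there is no replicate of the cells, so differences between gated and comparison cells are given without a test, and their intervals cover counting error only.

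Most brain capillaries are sealed by tight junctions and supply the brain through solute carriers, a state kept up by Wnt/β-catenin signalling. Capillaries of the choroid plexus and of the circumventricular organs are fenestrated instead: their wall has pores closed by diaphragms that the protein PLVAP builds, and solutes of the plasma pass. VEGF signalling is known to maintain fenestrae.

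The gate genes are given as a description only, since they chose the cells. Gated cells held a median of 17 Plvap UMIs (range 2 to 99) and of 24 UMIs of the other gate genes together (range 2 to 157), and 122 of the 144 had at least 6 of Plvap and at least 5 of the others. Esm1, which encodes the proteoglycan endocan, was detected in 104 gated cells, the lipid phosphatase gene Plpp3 in 141 and the retinoid-binding gene Rbp7 in 94. Of all UMIs in kept cells, the gated cells held 96.3% for Plvap, 97.5% for Esm1, 78.7% for Plpp3 and 98.0% for Rbp7. Cldn5 had 0 UMIs in 92 gated cells and at least 10 in 15. In bulk, Plvap averaged 19.1 CPM in brain, 450 CPM in lung and 120 CPM in liver. Fenestrae themselves were not examined.

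At the edge of the gate, 7 gated cells had exactly 2 Plvap UMIs and 6 had only 2 or 3 UMIs of the other gate genes together, while 12 cells with at least 2 Plvap UMIs stayed outside for having at most 1 UMI of the other genes. The collagen gene Col13a1, which the gate does not use, stood at 254 CPM (UMIs per 1000000 of a group's summed UMIs) in those 7 cells, at 190.0 CPM in those 6 and at 262 CPM in those 12. Another 145 cells had at least 2 UMIs of the other gate genes and none of Plvap; they held 0 Col13a1 UMIs and 2550 CPM of the glucose carrier Slc2a1, against 2850 CPM in the comparison cells. In 7 more cells with 1 Plvap UMI and at least 2 UMIs of the other gate genes, Col13a1 stood at 241 CPM (found in 3). Slc2a1 stood at 2170 CPM in them. Cells just inside and just outside either threshold thus carried Col13a1, and in those 145 cells without Plvap none was found. Slc2a1 stood at 1600 CPM in the 7 gated cells with exactly 2 Plvap UMIs (found in 4) and at 1600 CPM in the 6 (found in 2). It stood at 676 CPM in the 12, and at 347 CPM in the 122 gated cells counted above. Plpp1, also outside the gate, stood at 508 CPM in the 7 gated cells and 343 CPM in the 6, against 2350 CPM in the 122. The edge cells thus resembled the other gated cells only in part.

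Gated cells had a median of 5557 UMIs (range 795 to 19184), against 4567 UMIs (range 661 to 32078) in comparison cells, and a median mitochondrial share of 1.6% against 2.56%. The bulk libraries held 15907235 to 21792786 counts in brain, 2992101 to 11308897 in lung and 18485600 to 25690571 in liver. The cells were endothelial by genes outside the gate: all 16 pan-endothelial genes of a list passed the level filter below, 3 were at least 2-fold higher in gated cells and none was 2-fold lower. Pecam1 stood at 1363 CPM in gated cells and 898 CPM in comparison cells, and the cadherin gene Cdh5 at 980.3 and 676 CPM. Defining markers of other cell types were at or near 0 in the gated cells, with 38 summed UMIs for 10 mural genes, 7 for 8 fibroblast genes, 4 for 10 microglial genes, 4 for 8 neuronal genes and 0 for 7 ependymal genes. Of 13 choroid plexus epithelium genes, 9 had 0 UMIs and Enpp2 held 98 of the 115; the epithelial transport gene Ttr had 12 UMIs (13.4 CPM in gated cells, 40.6 CPM in comparison cells). The 262 UMIs of the 8 astrocyte genes were all of the gap junction gene Gja1, and the other 7 were at 0. A single gated cell held 9956 of the 10180 haemoglobin UMIs.

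Between gated and comparison cells, 1925 genes had a mean level of at least 100 CPM over both groups. Of these, 154 (8.0%) were at least 2-fold higher in gated cells, 180 (9.35%) at least 2-fold lower, and 1591 within 2-fold. The median log2 ratio was 0.03. Counts of genes past 2-fold in the gene lists are to be read beside these shares. At 8-fold, 40 genes were higher and 21 lower. Without the haemoglobin-rich cell the counts were 158 higher and 182 lower, and without the 15 gated cells with at least 10 Cldn5 UMIs they were 168 and 198.

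The 15 genes with the largest ratios were Col13a1, Penk, Btnl9, Col15a1, Gpihbp1, Fam167b, Exoc3l2, Car8, Piezo2, Slc43a3, Ptgs1, Hecw2, Tnfaip2, Ednrb and Gm13889. A gated cell carried UMIs of a median of 10 of these 15 genes, and 134 of 144 cells (93.1%) carried at least 5. No comparison cell reached 5, the most was 3, and 7938 of 8335 carried none. The set was chosen on these same cells, so these counts describe it. Col13a1 was detected in 86.8% of gated and 0.0960% of comparison cells, and in 68.2% and 0.0728% after each cell was thinned to 2466 UMIs (129 gated and 6869 comparison cells; 15 and 1466 shallower cells left out). Igfbp3 was detected in 92.4% and 10.2%, or 90.7% and 7.28% after thinning, and Plpp1 in 96.5% and 17.6%, or 93.0% and 10.5%.

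The largest ratio was that of Col13a1, a transmembrane collagen outside the list of matrix genes, of which 5 were higher and 3 lower. It had 551 UMIs in 125 of 144 gated cells and 8 UMIs among 8335 comparison cells, or 615 against 0.191 CPM, 3226-fold higher (95% counting interval 1626 to 7509). Col15a1, a collagen of basement membranes, had 271 CPM in gated and 0.167 CPM in comparison cells. The basement membrane proteoglycan gene Hspg2 (perlecan) had 728 and 118 CPM, 6.20-fold higher (5.70 to 6.72). Nid1, which links laminin to collagen IV, was 5.09-fold higher, Col4a2 2.87-fold and Col4a1 2.60-fold. Fibronectin went the other way: Fn1 had 138 CPM in gated cells and 905 CPM in comparison cells, 6.54-fold lower (5.48 to 7.86). Without the 15 gated cells with at least 10 Cldn5 UMIs, the log2 ratio of Fn1 was -4.423 rather than -2.709. That of Hspg2 moved little, from 2.631 to 2.705. Of the 18 matrix genes, 12 passed the level filter and 4 of those lay within 2-fold. The 5 higher and 3 lower stand beside 8.0% and 9.35% of all 1925 genes. The lower Mgp had 74.0% of its gated UMIs in 1 cell. Against all other kept cells in place of the comparison cells, the log2 ratio of Col13a1 was 9.92 rather than 11.66, and that of Col15a1 9.59 rather than 10.67.

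The VEGF receptor genes Nrp1, Kdr and Nrp2 were higher, while Flt1 and Flt4 stayed within 2-fold. Nrp1, the co-receptor that enhances VEGF signalling, had 3534 CPM in gated cells and 318 CPM in comparison cells, 11.1-fold higher (10.7 to 11.6). Kdr, the main signalling VEGF receptor, had 3058 and 618 CPM, 4.95-fold higher (4.76 to 5.15). Nrp2 was 4.42-fold higher (3.75 to 5.17). Flt1, whose product can also act as a decoy for VEGF, was near equal, at 5741 and 6009 CPM. Of 13 VEGF and angiopoietin genes, 7 passed the level filter, 3 were higher and none lower, with a median log2 ratio of 0.94. UMIs of this list took a median of 1.34% of a gated cell's UMIs, against 0.799% of a comparison cell's.

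Among genes of fenestrae and caveolae, Plpp1, a lipid phosphatase related to the gate gene Plpp3, had 2241 CPM in gated and 49.5 CPM in comparison cells, 45.3-fold higher (42.6 to 48.2), and was found in 139 gated cells. Ehd4, a membrane-shaping ATPase of endosomes, had 964 and 89.5 CPM, 10.8-fold higher (9.99 to 11.6), and the caveolar coat gene Cavin3 was 3.10-fold higher. Caveolin-1 was nearly level, with 294 CPM of Cav1 in gated cells and 245 CPM in comparison cells, 1.20-fold higher (1.06 to 1.35). The caveolar genes Cav2, Cavin1 and Cavin2 also lay within 2-fold, with log2 ratios of 0.15, 0.07 and 0.37. Mfsd2a, a lipid carrier that restrains caveolar transport at the barrier, was the lowest of all ranked genes, at 25.7 CPM in gated and 424 CPM in comparison cells, 16.5-fold lower (11.01 to 26.1).

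Vasoactive and IGF genes moved both ways. Of 16 vasoactive genes 8 passed the level filter, 4 higher and 2 lower, and of 11 IGF genes 4 passed, 2 higher and 1 lower. Over all 1925 genes past the filter, 8.0% were higher and 9.35% lower. Ednrb, the endothelin B receptor, had 489 CPM in gated and 3.93 CPM in comparison cells, 124-fold higher (104 to 150), while the ligand gene Edn1 was 4.20-fold lower. Ramp3 and Calcrl, whose products together form an adrenomedullin receptor, were 25.0-fold and 3.92-fold higher, and the alternative partner Ramp2 stayed within 2-fold. Ptgs1, the constitutive cyclooxygenase, had 268 and 0.715 CPM. The nitric oxide synthase gene Nos3 was 2.26-fold lower. Igfbp3, an IGF-binding protein, had 3153 CPM in gated cells and 57.2 CPM in comparison cells, 55.1-fold higher (52.2 to 58.2), and Igfbp7 was 2.84-fold higher, whereas the receptor gene Igf1r was 6.17-fold lower.

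Several genes from a list for capillaries outside the brain were high, though bulk values did not bear out that label for all its genes. It was not borne out for Rgcc, given below, or for Cxcl12. Cxcl12 averaged 4070 CPM in bulk brain, 299 CPM in lung and 29.6 CPM in liver. Car4 averaged 180 CPM in bulk brain, 392 CPM in lung and 0.0555 CPM in liver, and was not called against lung. Gpihbp1, which carries lipoprotein lipase to the capillary lumen, had 324 UMIs in 79 gated cells and 11 in comparison cells, 362 against 0.262 CPM. Cd300lg, a surface glycoprotein gene of capillary endothelium, had 688 and 8.15 CPM, 84.4-fold higher (73.8 to 96.6), and Rgcc, a cell cycle regulator, 2032 and 308 CPM. From the same list of 16, Car4, a membrane carbonic anhydrase, and the chemokine gene Cxcl12 were 2.24-fold and 3.98-fold lower; 6 genes passed the level filter, 4 higher and 2 lower. None of 15 liver sinusoidal genes passed it. Cd24a, a surface sialoglycoprotein gene, had 1199 and 16.7 CPM, 71.8-fold higher (65.2 to 79.0). Fabp4, a fatty acid binding protein gene, lay below the level filter, and 120 of its 126 gated UMIs lay in 1 cell.

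Penk, the gene of the opioid precursor proenkephalin, had 219 UMIs in gated cells and 4 in comparison cells, but only 8 gated cells carried it. Those cells held 84, 65, 51, 12, 3, 2, 1 and 1 UMIs, so 91.3% lay in 3 cells. Its 244.5 CPM is therefore a level of a few cells and not of the group.

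**Figure D1:**
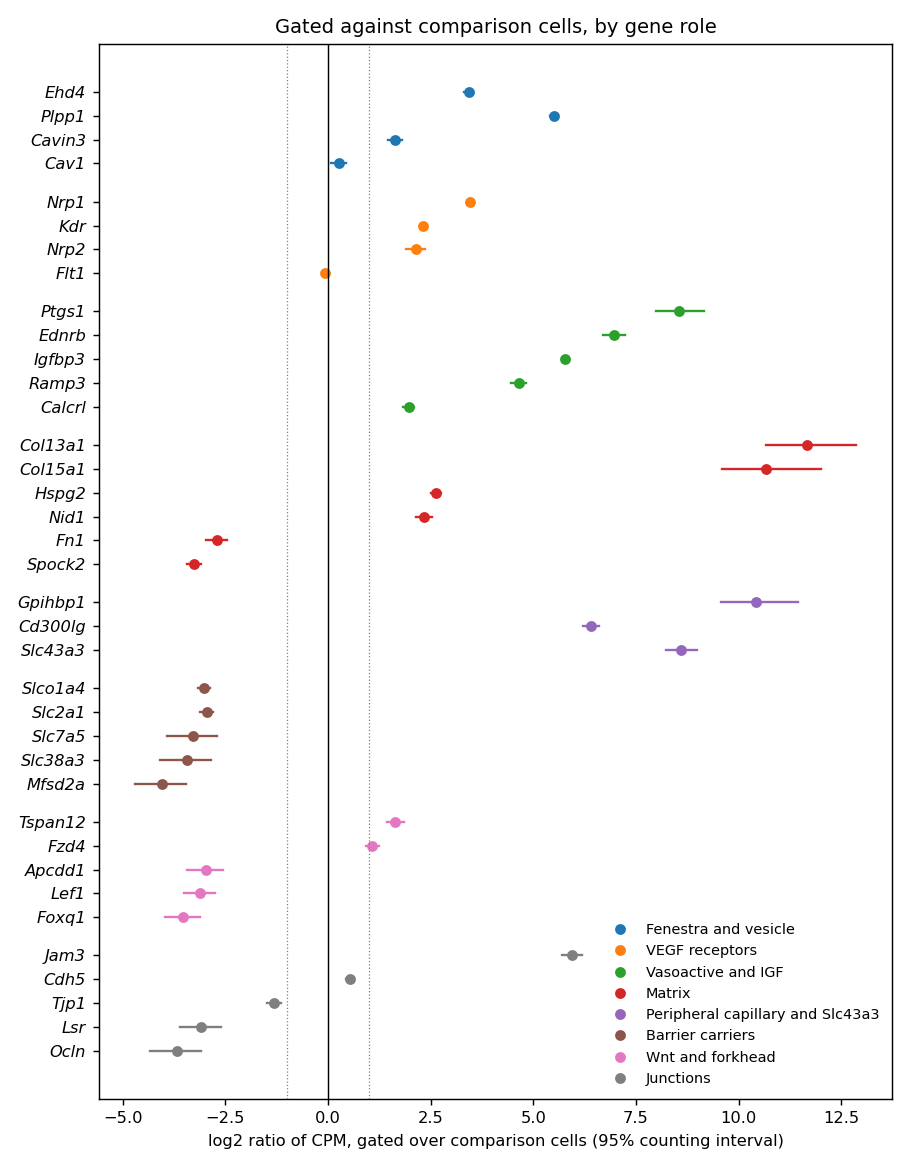
Log2 ratio of CPM of gated over comparison cells (x axis) for named genes grouped by role (rows), with 95% counting intervals as lines; dotted lines mark 2-fold in each direction. The collagen genes reach 11.66 and 10.67, Flt1, Cav1 and Cdh5 sit near 0, and the barrier carriers lie between -2.94 and -4.05.

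Solute carriers of the barrier formed a low group: 12 of the 15 that passed the level filter were at least 2-fold lower, none was higher, and the median log2 ratio was -2.75. Together the 22 carrier genes summed to 4358 CPM in gated cells and 16000 CPM in comparison cells. Slc2a1, the glucose carrier, had 371 and 2853 CPM, 7.70-fold lower (6.91 to 8.60). The large amino acid carrier gene Slc7a5 was 9.72-fold lower, the glutamine carrier gene Slc38a3 10.8-fold, and the organic anion carrier genes Slco1a4 and Slco1c1 8.13-fold each; Slco1c1 carries thyroxine. The efflux pumps Abcb1a, Abcc4 and Abcg2 were 6.16-fold, 2.85-fold and 2.09-fold lower.

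The low carrier levels were spread over most gated cells. UMIs of the carrier list took a median of 0.296% of a gated cell's UMIs (5th to 95th percentile 0.144% to 1.01%), against 1.68% of a comparison cell's (0.809% to 2.76%). Only 11 gated cells reached the comparison cells' 5th percentile; these held 7171 to 17047 UMIs, with a median of 11340, against 5333 in the other 133 gated cells. Without the 15 gated cells with at least 10 Cldn5 UMIs, a choice made after the data were seen, the log2 ratio of Slc2a1 was -5.06 rather than -2.94, that of Slco1c1 -5.77 rather than -3.02 and that of Mfsd2a -5.96 rather than -4.05. Slc2a1 was detected in 40.3% of gated cells and 98.3% of comparison cells, and in 22.5% and 98.1% after the same thinning. In 4 kept cells rich in haemoglobin or Ttr and without Cldn5, with a median of 6389.5 UMIs, Slc2a1 stood at 163 CPM, Spock2 at 122 CPM and Slco1a4 at 245 CPM. Bsg, the gene of a carrier chaperone, stood at 1406 CPM in gated cells and 11210 CPM in comparison cells, and at 2489 CPM in those 4 cells; whether the 4 cells express it or hold free RNA was not tested. Those 4 cells held 0 UMIs of Igfbp3, Plpp1, Col13a1, Cd24a and Kdr in 24504 UMIs.

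**Figure D2:**
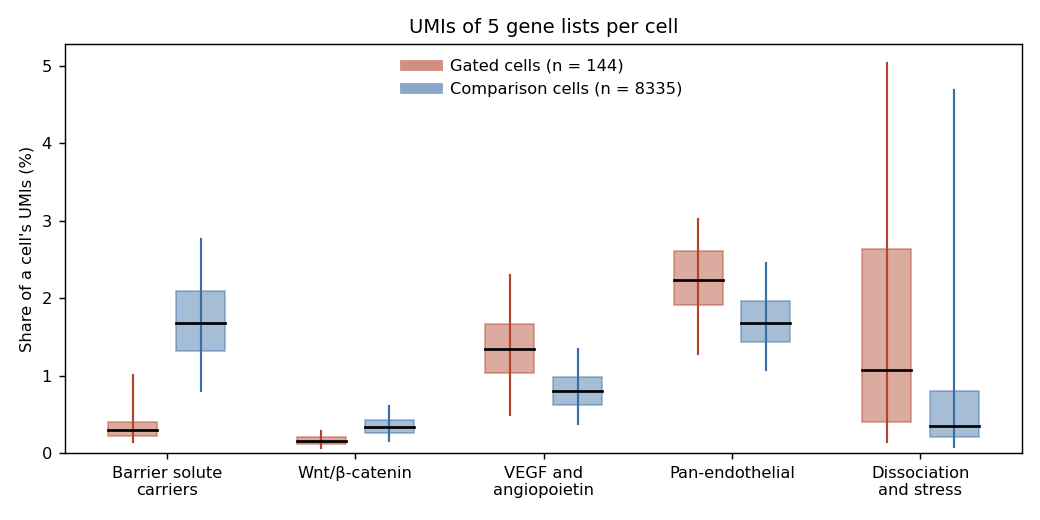
Share of each cell's UMIs (%, y axis) taken by 5 gene lists in gated cells (left of each pair) and comparison cells (right); lines span the 5th to 95th percentile, boxes the quartiles, black bars the median. The carrier list has medians of 0.296% and 1.68%, with gated cells the lower, while the pan-endothelial list has 2.23% and 1.68%.

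Receptor and signalling genes of the barrier moved both ways, with more of them lower. Spock2, a secreted proteoglycan, had 342 CPM in gated cells and 3260 CPM in comparison cells, 9.54-fold lower (8.53 to 10.7), the transferrin receptor gene Tfrc was 6.61-fold lower and the reelin receptor gene Lrp8 8.71-fold; 6 of the 11 genes that passed on the list of receptors and transcytosis, which holds Spock2, were lower and 1, the lipoprotein receptor gene Scarb1, was higher. Lef1, the transcription factor of Wnt/β-catenin signalling, had 70.3 and 608.5 CPM, 8.65-fold lower (6.76 to 11.3), and Apcdd1, a Wnt target, was 7.87-fold lower. Within the list, the receptor Fzd4 and its partner Tspan12 were 2.12-fold and 3.12-fold higher, and Fzd6 was 5.28-fold lower. Of 20 Wnt genes 7 passed the level filter, 2 higher and 4 lower, against 8.0% and 9.35% of all 1925 genes. All 4 brain endothelial transcription factors that passed were lower, with Foxq1 at 51.4 and 592 CPM, Foxc1 4.31-fold lower and Foxf2 2.33-fold lower. Without the 15 gated cells with at least 10 Cldn5 UMIs, the log2 ratio of Tfrc was -5.761 rather than -2.725. That of Lrp8 was -5.801 rather than -3.123, of Lef1 -5.345 rather than -3.113 and of Foxq1 -5.765 rather than -3.527. Foxf2 moved less, from -1.218 to -1.467. These folds thus depend in part on a few gated cells. The 5 Notch genes and the 10 TGF-β/BMP genes past the level filter lay within 2-fold, as did 1591 of all 1925 genes; Bmp6, a BMP ligand gene below the filter, had 114 CPM in gated cells and 0.787 CPM in comparison cells.

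Of the 10 junction genes past the filter, 1 was higher and 4 lower, against 8.0% and 9.35% of all 1925 genes. The tight junction genes Ocln (occludin), Lsr, Cgnl1 (paracingulin) and Tjp1 (ZO-1) were 12.8-fold, 8.46-fold, 3.68-fold and 2.47-fold lower. Without the 15 gated cells with at least 10 Cldn5 UMIs, the log2 ratio of Ocln was -5.591 rather than -3.675. That of Tjp1 moved less, from -1.307 to -1.558. Jam3, a junctional adhesion molecule, was 61.7-fold higher (51.9 to 73.5), at 343 CPM in gated and 5.55 CPM in comparison cells. Cdh5, the cadherin of adherens junctions, and Esam lay within 2-fold, as did the other junctional adhesion molecule genes Jam2 and F11r, with log2 ratios of -0.52 and 0.33.

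Arterial and venous genes were mostly lower or below the level filter. Of 14 arterial genes 5 passed, with Efnb2 higher and Mgp, Sox17 and Sema3g lower. Of 14 venous genes 4 passed, none higher and 2 lower. Over all 1925 genes past the filter, 8.0% were higher and 9.35% lower. Vcam1 had 55.1% of its gated UMIs in 1 cell. The antigen presentation genes H2-K1 and H2-D1 were 2.73-fold and 2.15-fold higher, although such MHC genes can share reads.

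Among the gated cells themselves, genes induced by dissociation were among the most variable. Hspb1, Hspa1b, Fos and Hspa1a varied 23.3, 22.8, 22.5 and 22.4 times as much as Poisson sampling at each cell's depth gives, against a median of 1.38 over 1696 genes with at least 100 UMIs. Dissociation and stress genes took a median of 1.07% of a gated cell's UMIs (5th to 95th percentile 0.144% to 5.03%) and 0.351% of a comparison cell's (0.0823% to 4.69%). Of the 13 genes, all passed the level filter and 1, Egr1, was 2-fold higher, against 8.0% of all 1925 genes. The part of this difference in dissociation and stress genes in the results above was not tested. Igfbp3 also varied, 26.5 times Poisson, with quartiles of 7.78 and 37.4 UMIs per 10000 in gated cells. Col13a1 and Hecw2, by contrast, varied 2.19 and 1.21 times, closer to the median gene.

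Promoter sequences of 2 low genes and 1 high gene carrying the core of TCF/LEF sites, CTTTGA on either strand, are shown because Lef1 itself differed between the cells; they were picked after their matches were seen. They run from 250 bases before to 50 bases after the start (RefSeq, GRCm38.p6), with the core in capitals. The windows lie at chr4:122961139-122961438 on the minus strand for Mfsd2a, chr10:60106007-60106306 on the plus strand for Spock2 and chr10:61979059-61979358 on the minus strand for Col13a1.
Mfsd2a: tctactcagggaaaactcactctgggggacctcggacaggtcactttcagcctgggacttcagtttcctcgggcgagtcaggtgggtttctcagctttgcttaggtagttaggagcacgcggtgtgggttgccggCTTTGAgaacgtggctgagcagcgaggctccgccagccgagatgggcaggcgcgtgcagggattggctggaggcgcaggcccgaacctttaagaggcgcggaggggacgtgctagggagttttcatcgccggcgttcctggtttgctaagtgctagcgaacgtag
Spock2: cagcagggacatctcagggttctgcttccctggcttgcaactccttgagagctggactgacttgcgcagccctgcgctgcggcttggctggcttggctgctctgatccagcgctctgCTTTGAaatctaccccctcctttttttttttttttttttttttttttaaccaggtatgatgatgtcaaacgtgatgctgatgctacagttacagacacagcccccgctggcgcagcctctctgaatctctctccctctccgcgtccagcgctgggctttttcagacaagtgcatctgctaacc
Col13a1: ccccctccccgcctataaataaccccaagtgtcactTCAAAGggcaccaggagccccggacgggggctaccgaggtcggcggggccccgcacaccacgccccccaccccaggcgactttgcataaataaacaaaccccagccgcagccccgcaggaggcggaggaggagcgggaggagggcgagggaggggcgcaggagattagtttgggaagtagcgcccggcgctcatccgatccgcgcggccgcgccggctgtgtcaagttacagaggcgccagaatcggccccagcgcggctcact
The core was present in 28 of 136 low genes with a window (20.6%), in 12 of 114 high genes (10.5%) and in 189 of 1532 genes past the level filter (12.3%). Over all 27025 genes with a window it was in 4911 (18.2%). The ETS core AGGAAG was in 43.4% of low and 43.9% of high genes, against 38.6% past the filter, and the forkhead core TGTTTAC in 4.41% and 6.14%, against 3.0%. None of the cores contains another, and a match is only a run of letters.

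Bulk libraries gave values that the gate did not use. They hold the mixture of all sorted cells of a tissue, so that fewer cells of a type and less RNA per cell cannot be told apart. Calls used edgeR's quasi-likelihood test with Benjamini-Hochberg adjustment over 13216 genes, an adjusted p under 0.05 and a fold of at least 2. Of the 154 genes high in gated cells, 152 were tested: 59 were called lower in brain than in lung (38.8%), 75 lower than in liver (49.3%) and 48 lower than in both (31.6%). Among all genes tested, 7.25% were called lower than lung, 8.72% lower than liver and 3.31% lower than both, and among those past the single-cell filter 7.39% and 10.7%. The opposite call was made for 14 genes against lung and 16 against liver. The genes high in gated cells were thus called lower in bulk brain more often than the background. Comparison cells were 8335 of the 8645 kept cells, so genes chosen as lower in them are favoured to be low in bulk brain. The backgrounds were not matched on brain level, so these shares describe the genes and are no separate support.

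The genes low in gated cells went the other way. Of 179 tested, 118 were called higher in brain than in lung (65.9%), 131 higher than in liver (73.2%) and 95 higher than in both (53.1%), against 5.05%, 7.45% and 2.41% of all genes and 13.7% and 16.0% of those past the single-cell filter. Median log2 fold changes were 2.45 against lung and 3.12 against liver for low genes, -0.90 and -1.22 for high genes, and 0.24 and -0.02 over all genes past the filter. Both comparisons share the brain libraries. The low genes were chosen as higher in the comparison cells, which favours a high level in bulk brain in the same way.

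**Figure D3:**
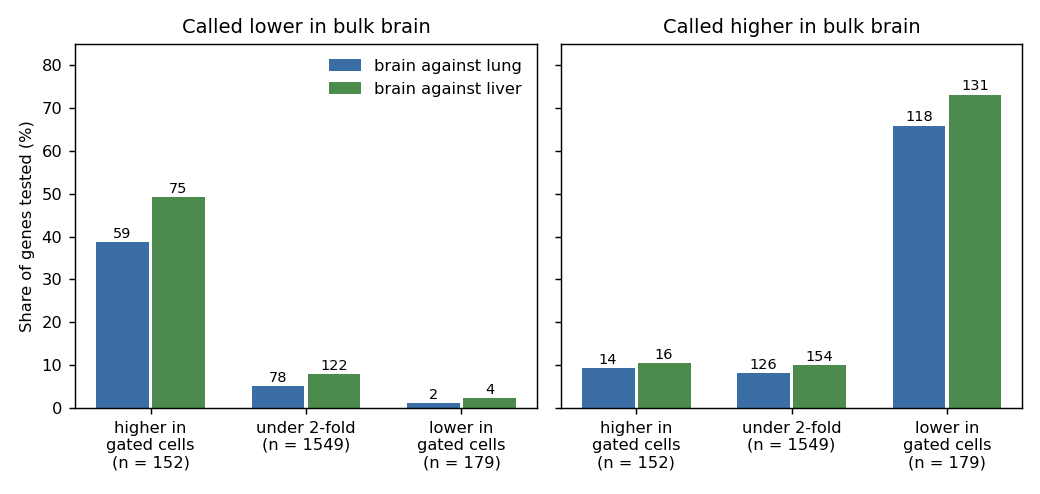
Share of genes tested in bulk (%, y axis) called lower (left panel) or higher (right panel) in brain than in lung (blue) or liver (green), for genes at least 2-fold higher in gated cells, under 2-fold, and at least 2-fold lower; numbers above the bars count the genes. Lower calls are most frequent for genes high in gated cells and higher calls for genes low in them.

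Gene by gene, the bulk values showed which high genes also mark other organs' endothelium. Gpihbp1 had 0, 0.267 and 0.0944 CPM in the 3 brain libraries, 113, 218 and 108 CPM in lung and 235, 309 and 219.9 CPM in liver, which gives a log2 fold change of -10.14 against lung (edgeR adjusted p = 8.14e-07, SE 0.70) and -10.93 against liver. Slc43a3 had 13.9, 10.96 and 43.3 CPM in brain, 952, 879 and 789 CPM in lung and 1448, 1523 and 1293 CPM in liver. For Hecw2, a ubiquitin ligase gene, the values were 9.54, 6.20 and 10.8 CPM in brain, 351, 317 and 213 CPM in lung and 523, 296 and 367 CPM in liver. The brain libraries of these 3 genes lay below all lung and liver libraries.

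Others favoured 1 organ. Cd300lg averaged 12.9 ± 5.07 CPM in brain, 56.8 ± 15.8 CPM in lung and 962 ± 95.5 CPM in liver (SD, n = 3 libraries each), and Ednrb averaged 16.3 ± 3.78 CPM in brain, 695 ± 47.6 CPM in lung and 42.0 ± 14.3 CPM in liver. Piezo2, a mechanosensitive channel gene, was lower in brain than in lung (edgeR adjusted p = 0.00632, log2 fold change -6.17 with SE 1.14) and not called against liver. Col13a1 was called lower than in liver (edgeR adjusted p = 0.00195, log2 fold change -6.37 with SE 1.18) and not against lung, where only 2 counts were found. The VEGF receptor genes Kdr and Nrp1 were called lower in brain than in both organs, with Kdr at log2 fold changes of -1.11 against lung and -1.82 against liver.

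Some high genes did not follow, or did so against liver alone. Igfbp3 had 81.3, 31.9 and 50.9 CPM in brain and 7.19, 0.321 and 8.65 CPM in lung, higher in brain (edgeR adjusted p = 0.0134, log2 fold change 3.28 with SE 0.78), and 44.8, 28.6 and 56.7 CPM in liver, where no call was made. Hspg2, Nrp2, Emcn and Btnl9 were also called higher in brain than in lung. Against liver, Nrp2 and Btnl9 were called lower in brain, Emcn was called higher and Hspg2 was not called. Jam3 had 3.38, 19.5 and 3.02 CPM in brain, with overlapping libraries in lung and liver, and no call. Cd24a averaged 214 ± 35.5 CPM in brain, 443 ± 149 CPM in lung and 11.6 ± 14.9 CPM in liver. Rgcc averaged 36.05 CPM in brain, 3.01 CPM in lung and 1.38 CPM in liver. It was called higher in brain than in liver and was not called against lung.

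**Figure D4:**
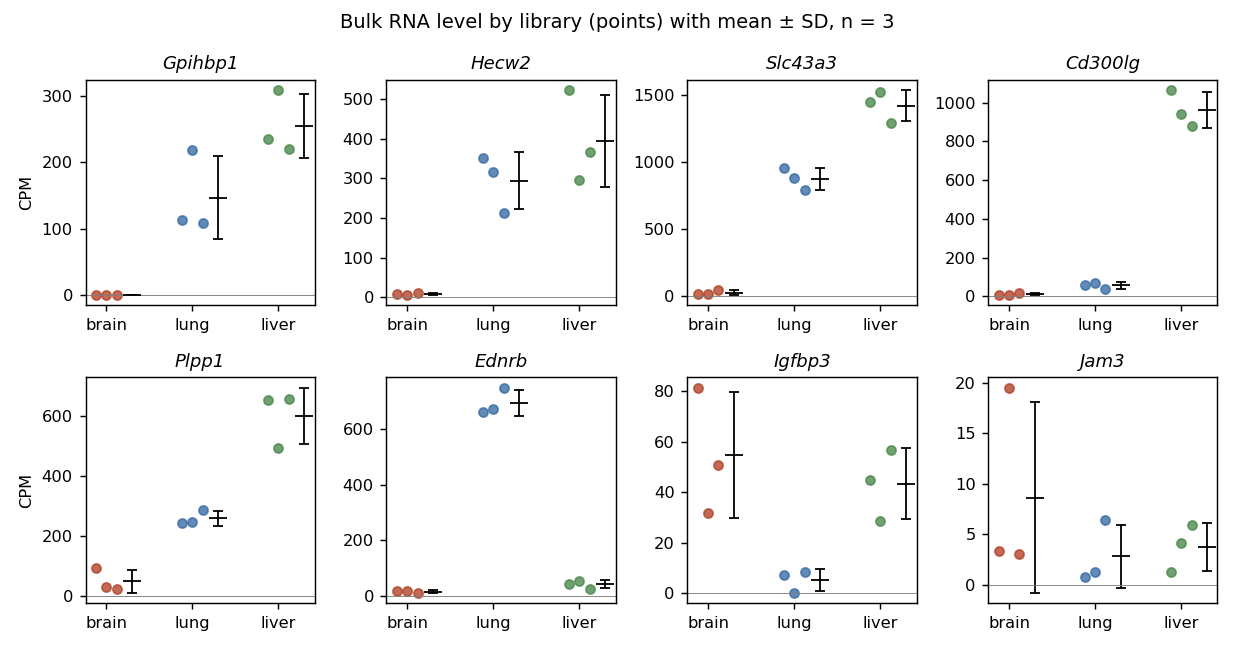
Bulk CPM (y axis) of 8 genes high in gated cells, per library (points) in brain, lung and liver, with mean ± SD of 3 libraries (black). Brain lies below lung and liver for Gpihbp1, Hecw2, Slc43a3, Cd300lg, Plpp1 and Ednrb, and above lung for Igfbp3.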

How the data were processed

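Single-cell values were UMI counts per gene and barcode deposited by the authors, 9405 barcodes by 32285 genes; bulk values were raw counts per gene symbol that the authors deposited, as the file headers say. The submitters' processing notes name TopHat, HTSeq 0.6.1 and Cell Ranger 1.2.0 among other tools, tied to no assay. ATAC data were not used here, as no annotation of their build was at hand. Of the barcodes, 760 failed the filters. UMIs were summed per group and scaled to CPM; genes with a mean of at least 100 CPM were ranked, gate genes and Cldn5 left out. No doublet caller was run; alternatives left out deep cells or cells with other types' markers. Ratio intervals are exact conditional binomial intervals. Bulk counts were tested with edgeR 4.0.16 in R 4.3.3 (filterByExpr, TMM, robust quasi-likelihood, 1 mean per tissue over 9 libraries). Each SE is an approximation, the absolute log2 fold change divided by the square root of the test's F statistic. Both procedures were run on simulated data. The single-cell simulation drew Poisson counts per group, without the spread between cells seen in the real data, so it does not cover that spread. DESeq2 1.42.0, other filters and leaving out libraries were alternatives. The labels do not tie libraries to animals, so p-values measure the spread between libraries. Of 24176 bulk symbols, 21992 matched a single-cell gene, some by older symbols (Plpp1 is Ppap2a there). Named genes were the 15 largest and 15 smallest ratios outside mitochondrial and ribosomal protein genes, up to 5 genes a direction and list past 2-fold, and 12 always; the text gives part of them, and other genes named were chosen after their values were seen. The cells and lists were chosen with earlier results of these data known.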

Additional observations from a re-analysis of the deposited data

How the results depend on the processing

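Of 1092 log2 ratios of 91 named genes under 12 alternatives, 1 reversed: Ttr was 0.14 without cells holding at least 3 UMIs of other types' markers (main -1.60). For the 87 genes past 2-fold, 14 of 1044 values fell under 2-fold, for Vcam1, Fzd4, Scarb1, Efnb2, Egr1, Gja1 and Ttr, and 121 values of 43 genes moved by over 1.5 times; the cause was not tested. That marker filter left 79 gated cells rather than 144, with 167 genes higher and 205 lower; Gja1 and Enpp2, both at 98 or more UMIs in gated cells, are among its markers. At a mean of 50 CPM, 259 genes were higher and 315 lower, and with no level filter 1794 and 1354. More genes are then compared, some with very few UMIs and so a large counting error. These counts are not shares and cannot be set against the 8.0% and 9.35% of the main setting. The alternatives without haemoglobin-rich or Cldn5-rich gated cells were chosen after seeing the data.

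DESeq2 1.42.0 called 2595 genes between brain and lung, against 1625 with edgeR, and 3077 between brain and liver, against 2137; the cause was not tested. Leaving out 1 library at a time gave 1108 to 1957 calls against lung and 1683 to 2131 against liver. High genes called lower in brain then numbered 56 to 60 against lung and 62 to 74 against liver, and low genes called higher 106 to 126 and 125 to 138. Same-numbered libraries correlated at -0.003 to 0.078 in their deviations, and differently numbered ones at -0.07 to 0.055. Such correlations cannot tell whether same-numbered libraries share animals, and the labels do not say. With a replicate block, 1440 and 1870 genes were called, and 61, 75, 119 and 132 of the high and low genes. Lung replicate 2 had the lowest depth, 2992101 counts, which limits calls of low genes there.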

Other observations

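Among the 3 bulk brain libraries, the 36 genes at least 8-fold higher in gated cells and with at least 10 brain counts were highest in replicate 1 for 15 genes (41.7%), in replicate 2 for 9 and in replicate 3 for 12, against 34.6%, 29.9% and 35.5% of 1876 genes past the single-cell filter. Fam167b had 9.95 CPM in brain replicate 1, 0.214 CPM in replicate 2 and 0 CPM in replicate 3, and Plpp1 had 93.3, 30.2 and 24.6 CPM. Others peaked elsewhere, with Jam3 at 3.38, 19.5 and 3.02 CPM and Ptgs1 at 5.70, 7.22 and 27.4 CPM.

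A few genes below the level filter, chosen after their values were seen, stood at higher CPM in gated cells than in comparison cells. Bmp6 had 102 UMIs in 43 gated cells, Lrg1 98.3 CPM in gated and 7.99 CPM in comparison cells, and the lipase gene Lpl 65.9 and 2.55 CPM. Several Wnt genes below the filter ran low, with Nkd1 at 7.82 and 178 CPM and Axin2 at 11.2 and 103 CPM. No cell cycle gene of 10 passed the level filter.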
